A study of Mus musculus with 4 samples.

Results

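The angiopoietins, the angiopoietin-like proteins and the Tie receptors were followed in C2C12 myoblasts that overexpress C/EBPβ, a leucine-zipper transcription factor. The set is a named list of 10 genes, Angpt1, Angpt2, Angpt4, Angptl1, Angptl2, Angptl4, Angptl6, Angptl7, Tek and Tie1, out of 49585 genes in the count files, and all 10 were found by symbol and Ensembl identifier. It was chosen by gene family with the measured differences between the C/EBPβ and empty vector libraries already known, so the fold changes and adjusted p-values of its members are given as descriptions and are not independent evidence. C2C12 cells are an immortal mouse muscle precursor line from the C3H strain. The comparison was between 2 libraries of cells transduced with an empty retroviral vector (pLXSN in the sample titles) and 2 libraries of cells transduced to overexpress C/EBPβ. Both groups were pools selected with G418 at 1200 μg/ml for 7 days and then left to proliferate for 48 h as myoblasts. The labels of all 4 libraries give 10% fetal bovine serum and 5% CO2. The labels do not say whether replicates came from separate transductions, and the spread behind each p-value may therefore be technical.

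Angiopoietins are secreted ligands of the receptor tyrosine kinase Tek, also called Tie2, which is known from endothelial cells, where Tie1 acts as its co-receptor. Angpt1, made by mural and other mesenchymal cells, activates Tek and stabilises vessels, while Angpt2 can oppose it. The angiopoietin-like proteins share the coiled-coil and fibrinogen-like domain layout but do not act through Tek. Some of them, such as Angptl4 and Angptl8, inhibit lipoprotein lipase, and others act in inflammation or in matrix-rich tissues.

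The libraries held 37566321 to 92027838 counts, with C/EBPβ replicate 2 the deepest, so that 1 count equalled 0.0109 to 0.0266 CPM (counts scaled to the library size). Cebpb itself stood at 85.0 and 76.8 CPM with the empty vector and at 483 and 473 CPM with C/EBPβ, in the direction of the labels, with vector-borne and chromosomal copies not told apart. Genes of the myoblast list (10 genes, all tested) moved both ways, 4 higher and 5 lower, and the list summed to 3669 to 3978 CPM with the empty vector against 2387 to 2659 CPM with C/EBPβ. The culture is a bulk sample, in which fewer cells of a kind and less RNA per cell cannot be told apart.

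Angpt4 and Angptl7 went from near absence to clear expression, Angpt1 rose modestly and Angptl4 fell modestly with C/EBPβ. Angpt2 and Angptl6 did not pass the test, and Angptl2, the most abundant member, did not pass either. Tek, Tie1 and Angptl1 had too few counts to be tested. Of the 7 members with enough counts, 3 were higher and 1 was lower at an adjusted p of 0.05 or under (edgeR quasi-likelihood test, Benjamini-Hochberg over all 15078 genes tested). Among all genes tested, 24.9% passed, 14.1% higher and 10.8% lower. In 5 of the 7 the 2 groups did not overlap, which was so for 66.2% of all genes tested. Because the members were listed with this comparison known, nothing is read from these shares.

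**Figure D1:**
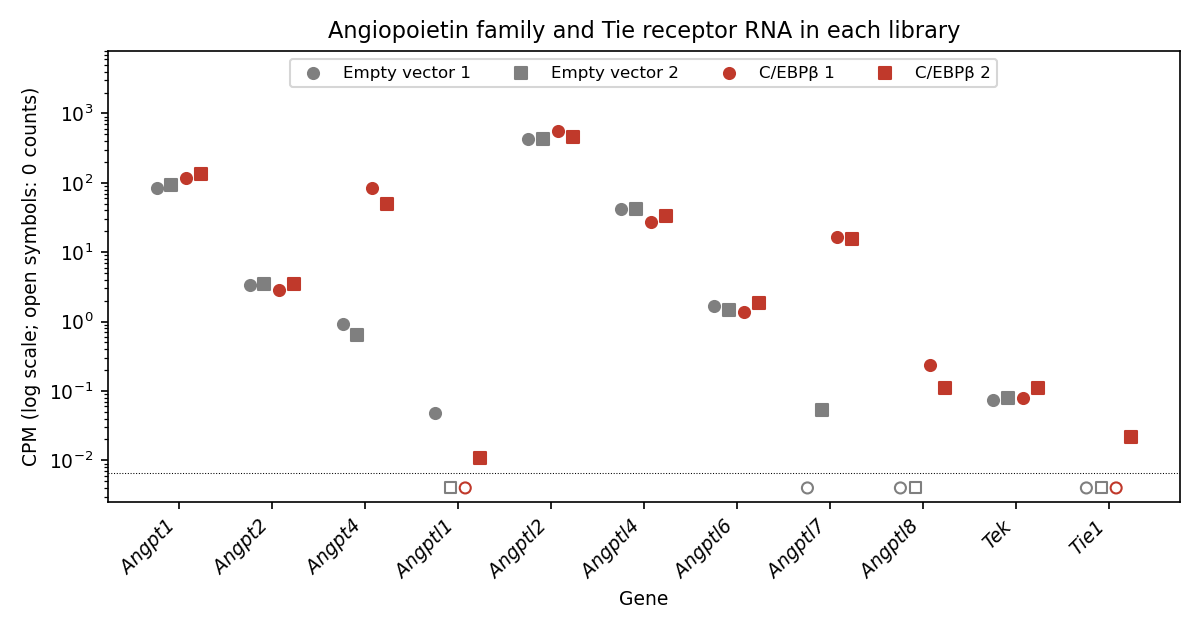
CPM (log axis) of the 10 members and of Angptl8 in each library, grey for empty vector and red for C/EBPβ, with open symbols below the dotted line for 0 counts. Angpt4 and Angptl7 are far higher in both C/EBPβ libraries, while Tek and Tie1 are at or under 0.109 CPM in all 4.

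Among the angiopoietin ligands Angpt4 changed most. Angpt4, the mouse counterpart of human ANGPT4 and once named angiopoietin-3, is a Tek ligand. It lies at chr2:151911210-151945337 on the plus strand of GRCm38, a protein-coding gene with 9 merged exons. It held 0.924 and 0.634 CPM with the empty vector (38 and 24 counts) and 84.3 and 50.1 CPM with C/EBPβ (3216 and 4600 counts). Both C/EBPβ libraries were high and the groups did not overlap, with replicate 1 above replicate 2. The means were 0.779 ± 0.205 and 67.2 ± 24.2 CPM (SD, n = 2), and the log2 fold change was 6.41 (SE 0.32, adjusted p = 8.66e-06), rank 44 of 15078 from the highest log2 fold change. Leaving out any 1 library gave values from 5.99 to 6.74.

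Angpt1, the activating Tek ligand, lies at chr15:42424727-42676977 on the minus strand. Its level was 84.2 and 92.3 CPM with the empty vector and 116 and 135 CPM with C/EBPβ. Every C/EBPβ library stood above every empty vector library, with a log2 fold change of 0.51 (SE 0.10, adjusted p = 0.00680). This rise kept its sign in all 11 fits run, the one reported and 10 alternatives, with log2 fold changes from 0.39 to 0.61. It passed in every fit of all 4 libraries, with adjusted p from 1.46e-04 (replicate block) to 0.00929 (library totals only). The fit with no filter gave 5.09e-06, far below these. By the distance between 4 mean-centred log2 CPM values, over 11519 candidate coding genes, the nearest patterns to that of Angpt1 were those of Hoxc5 (distance 0.04), Zfp658 (0.06) and Chst15 (0.07). With 4 libraries, such a likeness describes these libraries only.

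Angpt2, the ligand that can antagonise Angpt1, had 3.40 and 3.46 CPM with the empty vector and 2.88 and 3.48 CPM with C/EBPβ. The groups overlapped, and the log2 fold change of -0.10 (SE 0.18, adjusted p = 0.748) changed sign without C/EBPβ replicate 1.

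Set per kilobase of exon, which allows genes to be compared, the make-up of the angiopoietin RNA changed. In the empty vector libraries Angpt1 made up 93.8% and 94.7% of the summed level of Angpt1, Angpt2 and Angpt4, and Angpt4 1.87% and 1.19%. With C/EBPβ the share of Angpt4 was 56.3% in replicate 1 and 39.6% in replicate 2, and that of Angpt1 42.5% and 58.6%. So Angpt4 led in one C/EBPβ library and Angpt1 in the other. The level per length of Angpt4 (28.8 ± 10.4 CPM per kb) and of Angpt1 (29.5 ± 3.17) did not differ beyond their spread. The summed level per length was 21.1 and 22.9 CPM per kb with the empty vector against 64.1 and 54.1 with C/EBPβ. These shares are descriptions of members chosen with the comparison known, and no test was made of them.

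**Figure D2:**
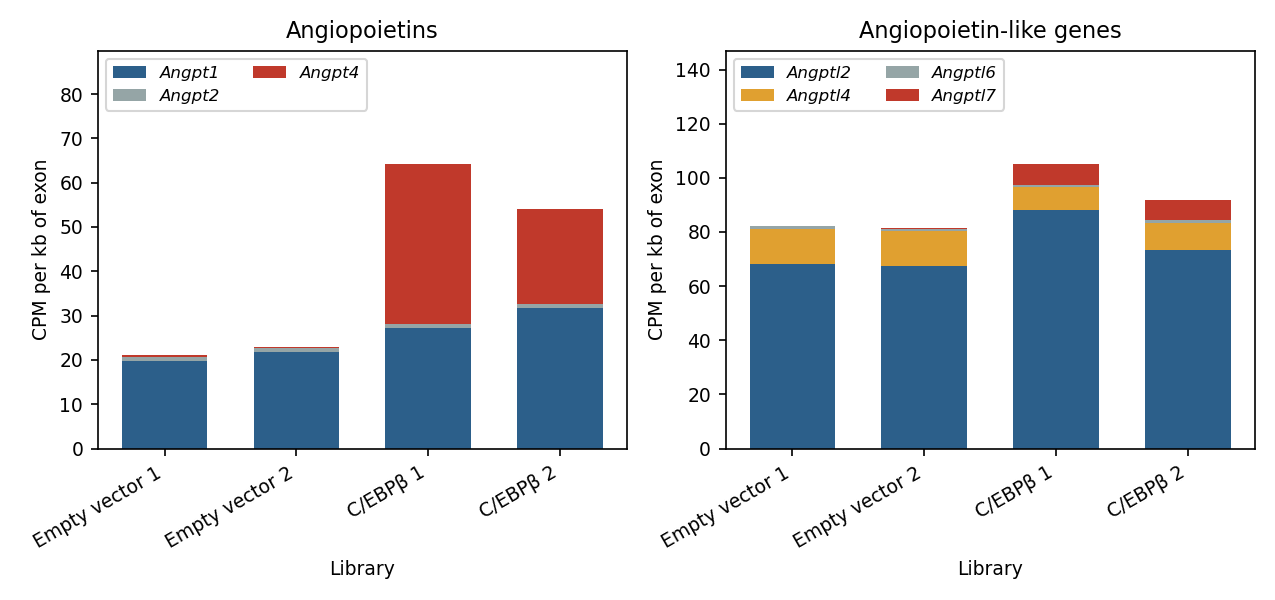
Level per length (CPM per kb of exon, bars from 0) in each library, stacked by gene, for the 3 angiopoietins and for the 4 angiopoietin-like genes with enough counts to be tested. The red Angpt4 segment holds 56.3% and 39.6% of the angiopoietin bar in the C/EBPβ libraries, and Angptl2 is the tallest segment of every angiopoietin-like bar.

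Among the angiopoietin-like genes, Angptl7 changed most. It encodes a secreted protein known from the cornea and the outflow tissue of the eye, and lies at chr4:148495183-148500460 on the minus strand, with 5 merged exons. The empty vector libraries held 0 and 2 counts and the C/EBPβ libraries 624 and 1432. In CPM this was 0 and 0.0529 against 16.4 and 15.6, so the pair of C/EBPβ libraries were close to each other while the controls were at the edge of detection. The adjusted p was 3.03e-06. Angptl7 met the count filter only through the C/EBPβ libraries, where it is high, so this p is a description and not evidence. With only 2 control counts the fold is best given as a ratio, 617 with a 95% counting interval of 171 to 5101. Without empty vector replicate 1 the ratio was 296 (81.7 to 2442), and without empty vector replicate 2, where 0 control counts remained, the level was at least 215-fold higher, taking 3 counts for the remaining control. Intervals and bounds cover counting error only.

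The 250 bases before the RefSeq start of Angpt4 and Angptl7 are shown because these members changed most. That of Angptl8, a lipoprotein lipase inhibitor of liver and fat outside the list of 10, is shown because it alone among the family's entries held the longer C/EBP letters searched. Capitals mark matches, on either strand, to any of TTGCGCAA, TTGNNCAA, TTNNGNAA (TTNCNNAA on the other strand), TGATGCAAT (ATTGCATCA on the other strand) or the TATA letters TATAAA. TTGCGCAA is the palindromic C/EBP consensus and is contained in TTGNNCAA. TGATGCAAT is a composite of ATF and C/EBP letters. Each line runs 5′ to 3′ in the direction of the gene, from RefSeq on GRCm38.p6, at chr2:151910957-151911206 (plus strand), chr4:148500463-148500712 (minus strand) and chr9:21835260-21835509 (plus strand).
Angpt4: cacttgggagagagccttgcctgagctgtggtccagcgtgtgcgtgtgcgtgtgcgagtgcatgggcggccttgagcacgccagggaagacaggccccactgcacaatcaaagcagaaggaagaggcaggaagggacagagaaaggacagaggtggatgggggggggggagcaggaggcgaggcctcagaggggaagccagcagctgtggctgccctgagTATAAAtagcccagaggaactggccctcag
Angptl7: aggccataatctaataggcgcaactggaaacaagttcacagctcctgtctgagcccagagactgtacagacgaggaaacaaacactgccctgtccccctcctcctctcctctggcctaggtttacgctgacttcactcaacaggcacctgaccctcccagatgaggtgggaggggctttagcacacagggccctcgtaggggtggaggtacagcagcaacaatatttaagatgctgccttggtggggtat
Angptl8: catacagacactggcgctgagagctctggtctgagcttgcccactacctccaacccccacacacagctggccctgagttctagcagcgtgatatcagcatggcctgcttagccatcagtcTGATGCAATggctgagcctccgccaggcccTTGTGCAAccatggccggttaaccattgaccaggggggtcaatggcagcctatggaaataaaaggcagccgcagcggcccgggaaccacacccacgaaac

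RefSeq promoter entries were matched for 7 of the 10 members, all but Angpt1, Angpt2 and Angptl4. In these windows neither TTGCGCAA nor TTGNNCAA was found in any of the 7, and the looser TTNNGNAA form was found once, in Tek. The Angpt4 window holds TATAAA starting 30 bases before the start. In Angptl8 the composite match starts 130 bases and TTGTGCAA 100 bases before the start, and the latter fits both TTGNNCAA and TTNNGNAA. Over all 32851 windows of this length, TTGCGCAA occurs in 0.164%, TTGNNCAA in 5.65%, TTNNGNAA in 36.8%, the composite in 0.167% and TATAAA in 12.4%. A match is a description of letters, and its absence from this window says nothing of binding elsewhere.

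Angptl2, a secreted protein linked to inflammation and tissue remodelling, was the most abundant member per length in every library. It had 429 and 424 CPM with the empty vector and 555 and 461 CPM with C/EBPβ. The groups did not overlap, yet the C/EBPβ libraries lay far apart, and the log2 fold change of 0.25 (SE 0.11) gave an adjusted p of 0.130. Without C/EBPβ replicate 2 it passed (0.38, adjusted p = 0.0472), the lowest adjusted p of its fits, which ran up to 0.747.

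Angptl4, an inhibitor of lipoprotein lipase that is induced by fatty acids and hypoxia in many tissues, lies at chr17:33773750-33781575 on the minus strand. Its level was 42.4 and 42.6 CPM with the empty vector and 27.0 and 32.8 CPM with C/EBPβ. The fall was seen in both C/EBPβ libraries, with a log2 fold change of -0.50 (SE 0.11, adjusted p = 0.0119). Without C/EBPβ replicate 1 the log2 fold change was -0.37 and the call was lost. Angptl4 passed in every fit of all 4 libraries. The adjusted p ran from 3.34e-04 (replicate block) to 0.0154 (at least 5 CPM in 2 libraries), with 1.53e-04 in the fit with no filter. The nearest patterns by the same distance were those of Dusp18, Igfbp2 and Katnal2, each at 0.03.

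Angptl6, a circulating growth factor of the family, had 1.70 and 1.45 CPM with the empty vector and 1.39 and 1.83 CPM with C/EBPβ. These values overlapped, and its log2 fold change of 0.05 (SE 0.24, adjusted p = 0.90) changed sign when empty vector replicate 2 or C/EBPβ replicate 2 was left out. Angptl1, described as an inhibitor of vessel growth, had 2 counts over both empty vector libraries and 1 over both C/EBPβ libraries, under the floor of 3 counts in each group. Angptl8 had 0 counts in both controls and 9 and 10 counts with C/EBPβ (0.236 and 0.109 CPM). That level is at least 3.80-fold higher, taking 3 counts for both controls together. The gene was too low to be tested under the filter used and passed with no filter. The fit with no filter gave far smaller adjusted p-values than the one reported (4.87e-168 against 3.03e-06 for Angptl7), so nothing is read from that pass.

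The order of the members by level per length changed at the positions of Angpt4 and Angptl7. With the empty vector Angptl2 led (67.8 ± 0.626 CPM per kb), followed by Angpt1 (20.7 ± 1.35) and Angptl4 (12.9 ± 0.0440). Angptl6 (0.997 ± 0.111) and Angpt2 (0.930 ± 0.0113) came next with overlapping values, and then Angpt4 (0.334 ± 0.0877), with the remaining members at or under 0.0162. With C/EBPβ Angptl2 again led (80.8 ± 10.5), then Angpt1 and Angpt4 with overlapping values, Angptl4 (9.10 ± 1.26) and Angptl7 (7.40 ± 0.253). Angptl6 and Angpt2 (1.02 ± 0.196 and 0.863 ± 0.115) overlapped again. Angptl7 took 7.21% and 7.86% of the summed angiopoietin-like level with C/EBPβ, close behind Angptl4 with 7.80% and 10.9%.

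The receptors of the angiopoietins stayed near the limit of detection. Tek had 3 and 3 counts with the empty vector and 3 and 10 with C/EBPβ, which is 0.0729, 0.0793, 0.0786 and 0.109 CPM. The ratio of the groups was 1.3 with a 95% counting interval of 0.461 to 4.17, so no difference was detectable at this depth. Tie1 had 0 counts in 3 libraries and 2 counts in C/EBPβ replicate 2, or 0.0153 CPM over the group (95% interval 0.00185 to 0.0553). In the C/EBPβ libraries Angpt1 and Angpt4 thus stood at 29.5 and 28.8 CPM per kb, and their receptor Tek at 0.0199 ± 0.00453 CPM per kb.

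Of the 10 members, 6 overlap another gene on the opposite strand, a feature the list did not use. Angpt2 lies within Mcph1, Angptl1 within Ralgps2, Angptl2 within Ralgps1 and Angptl7 within Mtor, in each case with 0 bases of shared exon. Angptl8 lies within Dock6 in the same way. Angpt1 and Angptl6 share 283 and 265 exonic bases with the antisense gene Gm17473 and with A230050P20Rik, and Angptl1 shares 465 with Gm37802. The counts were made by strand, so reads of the opposite gene are not added where library strandedness holds.

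None of the tested overlapping genes moved as far as Angpt4 or Angptl7. Of 7 genes overlapping a member, 6 were tested, and 1 was higher and 1 lower, beside 24.9% of all genes tested. Mtor, the growth-control kinase gene around Angptl7, had 56.1 and 67.2 CPM with the empty vector and 79.5 and 73.5 CPM with C/EBPβ, a log2 fold change of 0.31 (SE 0.10, adjusted p = 0.0615). It passed with the replicate number as a block (adjusted p = 0.0204). With no low-count filter it also passed (0.0157), in the fit that gave far smaller adjusted p-values for Angptl7. Without empty vector replicate 2 its log2 fold change was 0.44. Ralgps2, a guanine nucleotide exchange factor gene, fell by 1.35 on the log2 scale (SE 0.13), from 33.4 ± 5.70 to 13.1 ± 0.106 CPM, around an Angptl1 that was barely detected. A230050P20Rik rose by 0.59 (adjusted p = 0.00295) beside an Angptl6 that did not pass. Mcph1 (-0.19), Ralgps1 (-0.48) and Gm17473 (0.56) did not pass. Leaving out C/EBPβ replicate 2 brought Ralgps1 past the threshold (-0.70, adjusted p = 0.0442), as did the block (-0.50, adjusted p = 0.0361). Outside the list of 10, Dock6 around Angptl8 rose by 0.49 (adjusted p = 0.00936).

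The nearest tested coding genes on either side were also read, a set chosen after the values were seen. Of 20 such neighbours of the 10 members, 2 were higher and 5 lower, beside 14.1% higher and 10.8% lower among all genes tested. Those of Angpt4, Psmf1 (-0.06) and Fam110a (-0.12), and Exosc10 (0.16) near Angptl7 did not pass. Fam110a lies 24.1 kb from Angpt4. Angpt1 stands between Abra, 555 kb away, with 21 counts in the empty vector libraries and 3 with C/EBPβ, and Rspo2, 344 kb away, which rose by 2.68.

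**Figure D3:**
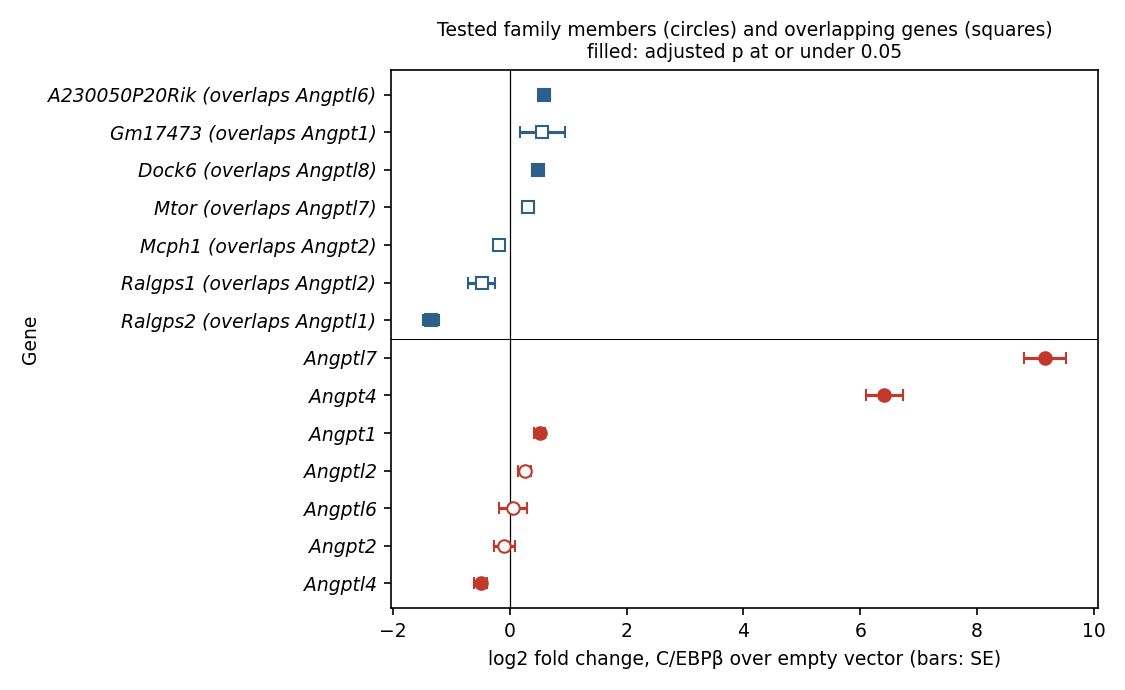
Log2 fold change with SE (C/EBPβ over empty vector) of the 7 tested members, as circles, and of the tested genes that overlap a family gene, as squares, filled where the adjusted p was 0.05 or under. Angpt4 (6.41) and Angptl7, whose fitted value rests on 2 control counts, stand far to the right, while the squares lie between -1.35 and 0.59.

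Genes around the family were read from lists drawn up with earlier results of these data known, and each list is set beside all genes tested, of which 24.9% passed (14.1% higher and 10.8% lower) with a median log2 fold change of 5.45e-04. Among Tie receptor partners and signalling genes, 16 of 17 were tested, of which 5 rose and 3 fell (median 0.05). The largest rise was that of Svep1, a large matrix protein that binds Tie1. It stood at 13.1 and 7.53 CPM with the empty vector and 165 and 94.7 CPM with C/EBPβ (3.64, SE 0.31, adjusted p = 1.20e-04). Grb14, an adaptor, rose by 2.52 (1.90 without C/EBPβ replicate 1), and Grb2, an adaptor of receptor kinases, and Tnip2, an inhibitor of NF-κB signalling, fell (-0.29 and -0.36). The endothelial phosphatase gene Ptprb did not pass (-0.39). The count of 8 was 4 without empty vector replicate 2, without C/EBPβ replicate 1 or without C/EBPβ replicate 2, and the calls of both Grb2 and Tnip2 were lost without either C/EBPβ library, that of Grb2 also without empty vector replicate 1 and that of Tnip2 without empty vector replicate 2. The list's median turned to -0.01 without C/EBPβ replicate 2.

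Of the integrin and other receptors named for these ligands, 7 of 8 were found and 6 tested, and 2 rose (median 0.18). Itga5, the fibronectin receptor chain, rose from 286 ± 15.4 to 442 ± 47.5 CPM (0.63, adjusted p = 0.00308). Mcam rose by 1.06 (adjusted p = 0.0349), a call lost in DESeq2 (0.133), in limma-voom (0.0868), without either empty vector library and without C/EBPβ replicate 1 (0.0736, log2 fold change 0.50). Itgav, Itgb1, Itgb3 and Itgb5 did not pass.

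The lipoprotein lipase list covers the enzyme that Angptl4 and Angptl8 inhibit and its partners. Of 15 genes listed, 9 were tested, 4 rose and 2 fell (median 0.15, or 0.07 without empty vector replicate 1 and 0.23 without empty vector replicate 2). Lpl stood at 41.0 and 32.8 CPM with the empty vector and 1030 and 783 CPM with C/EBPβ, both libraries high (4.62, SE 0.18, adjusted p = 3.03e-06). Over the same libraries Angptl4 fell. Vldlr, a receptor of triglyceride-rich lipoproteins, rose by 1.58. Lipg, endothelial lipase, and Cd36, a fatty acid translocase, fell (-1.43 and -2.34). Cd36 met the count filter only through the empty vector libraries, where it is higher, so its call is a description. Gpihbp1, which carries Lpl across endothelium, had 0 counts in all 4 libraries, as did Pcsk5, Apoc2 and Apoc3.

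Among known regulators of Angptl4 and Angpt2, 12 of 13 were tested, 4 rose and 1 fell (median 0.29). Ets1, a transcription factor of endothelial and mesenchymal cells, rose by 0.82 and Gata2 by 0.61, and Klf2, a flow-induced factor, fell by 0.90. The remaining calls, Hif1a (0.32, adjusted p = 0.0416) and Ppard (0.27, adjusted p = 0.0456), were also rises, while Ppara, Pparg and Rxra did not pass. A link of these genes to the fall of Angptl4 was not tested. The count of 5 was 3 without either empty vector library and with library totals only. Of 13 other secreted fibrinogen-domain genes 5 were tested, 2 rose and 2 fell (median -0.08). Tnxb, a tenascin, rose by 2.56 and Fibcd1 by 0.90 (adjusted p = 0.0300), the latter lost without either empty vector library, without C/EBPβ replicate 1 and in limma-voom. Fgl2 and Fcna fell (-1.48 and -1.90), Fcna meeting the count filter only through the empty vector libraries. The list's median was positive, 0.39 to 0.60, when either empty vector library or C/EBPβ replicate 2 was left out, over the members then tested.

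Markers of other cells that a culture could hold were read beside the family. Of 16 endothelial markers 6 were tested, 3 rose and 1 fell (median 0.69), and the list summed to 16.7 to 19.2 CPM with the empty vector and 17.9 to 20.9 CPM with C/EBPβ. Sox18 rose by 2.12 from 0.313 ± 0.107 CPM and Vwf by 1.82 from 0.201 ± 0.0598 CPM, both calls lost without empty vector replicate 2. Flt1, a VEGF receptor, fell by 0.53, a call lost without empty vector replicate 1 or C/EBPβ replicate 2. Without empty vector replicate 2 only 1 endothelial marker passed. The listed genes Emcn, Robo4, Erg and Sox17 had 0 counts in all 4 libraries, and Cldn5 had 1 count. Pecam1 had 2 counts with the empty vector and 10 with C/EBPβ, and Cdh5 had 4 and 11. These endothelial markers, named after their values were seen, were at or near 0 in both groups, as were Tek and Tie1. Others of the list were not. Mean CPM with the empty vector and with C/EBPβ was 12.5 and 8.68 for Flt1, 3.24 and 6.36 for Eng, which passed as higher, and 1.19 and 1.59 for Egfl7, which did not pass.

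Mural markers, genes of the cells that supply Angpt1 to vessels, were tested in 8 of 12, of which 4 rose and 2 fell (median 0.68, or 1.32 and 1.44 when empty vector replicate 1 or C/EBPβ replicate 2, in turn, was left out). Acta2, smooth muscle actin, rose by 1.34 and Pdgfrb by 1.28, and Des and Anpep fell (-0.57 and -0.55). The list summed to 2643 to 3044 CPM with the empty vector and 3808 to 4813 CPM with C/EBPβ. Acta2 stood at 1324 and 883 CPM with the empty vector and 3263 and 2312 CPM with C/EBPβ. That rise was larger than the rise of the sum, so the other listed genes summed to less with C/EBPβ. Among them Des went from 1296 and 1335 to 855 and 919 CPM, and Pdgfrb from 190 and 158 to 471 and 377 CPM. Des is also in the myoblast list and Mcam in the list of integrin and other receptors, so these lists are not separate evidence. Of the mural list 5 genes were low. Kcnj8, a potassium channel gene of pericytes, rose from 5 to 68 counts (adjusted p = 0.00394). It met the count filter only through the C/EBPβ libraries. Abcc9 and Myh11 each had 2 control counts, against 15 and 27 with C/EBPβ, Rgs5 had 0 against 15, and Higd1b had 0 in both groups. Tendon and synovial markers, of matrix-rich tissues, were tested in 8 of 10, with 4 higher and 2 lower (median 0.37), and summed to 277 to 330 against 513 to 707 CPM. Most of that rise was Prg4, at 1.80 and 1.69 CPM with the empty vector and 372 and 223 CPM with C/EBPβ. Prg4, lubricin, rose by 7.41 and Fmod, a collagen-binding proteoglycan, by 5.49. Fmod stood at 1.73 and 0.291 CPM with the empty vector and 71.4 and 22.4 CPM with C/EBPβ. With each empty vector library left out in turn its log2 fold change was 7.30 (replicate 1 out) and 4.74 (replicate 2 out), and with each C/EBPβ library left out it was 4.44 (replicate 1) and 6.11 (replicate 2). Has1 and Clic5 fell (-1.59 and -1.21), the latter lost without empty vector replicate 1.

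Adipocyte markers were tested in 3 of 10 genes, with 2 higher and 1 lower, and summed to 70.3 to 79.6 against 817 to 1066 CPM, most of it Lpl. Lpl is also in the lipoprotein lipase list. Fabp4 rose by 5.34 (6.06 without empty vector replicate 1) and Pnpla2, a lipase of stored fat, fell by 0.50. Of the 7 listed genes too low to be tested, Plin1 had 0 control counts against 36 with C/EBPβ, Retn 0 against 20, Cidec 0 against 4 and Cfd 0 against 2. Adipoq and Pck1 had 1 control count and 0 with C/EBPβ, and Lep had 0 in both. With no filter on low counts 4 adipocyte markers were higher and 1 lower. Leukocyte markers were tested in 4 of 12, of which 3 rose (median 1.02), and summed to 19.3 to 21.3 against 37.2 to 38.8 CPM. Lyz2 rose by 5.88 (6.79 without empty vector replicate 1) and Cd14 by 0.72, while Tyrobp, Adgre1, Itgam and Cd3e had 0 counts in every library. Among myoblast markers Myf5 and Musk rose by 0.60 and 1.21, and Itga7 and Cdh15 fell (-1.42 and -1.25). The part of these marker shifts in the levels of Angpt1, Angpt4, Angptl4 and Angptl7 was not tested.

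**Figure D4:**
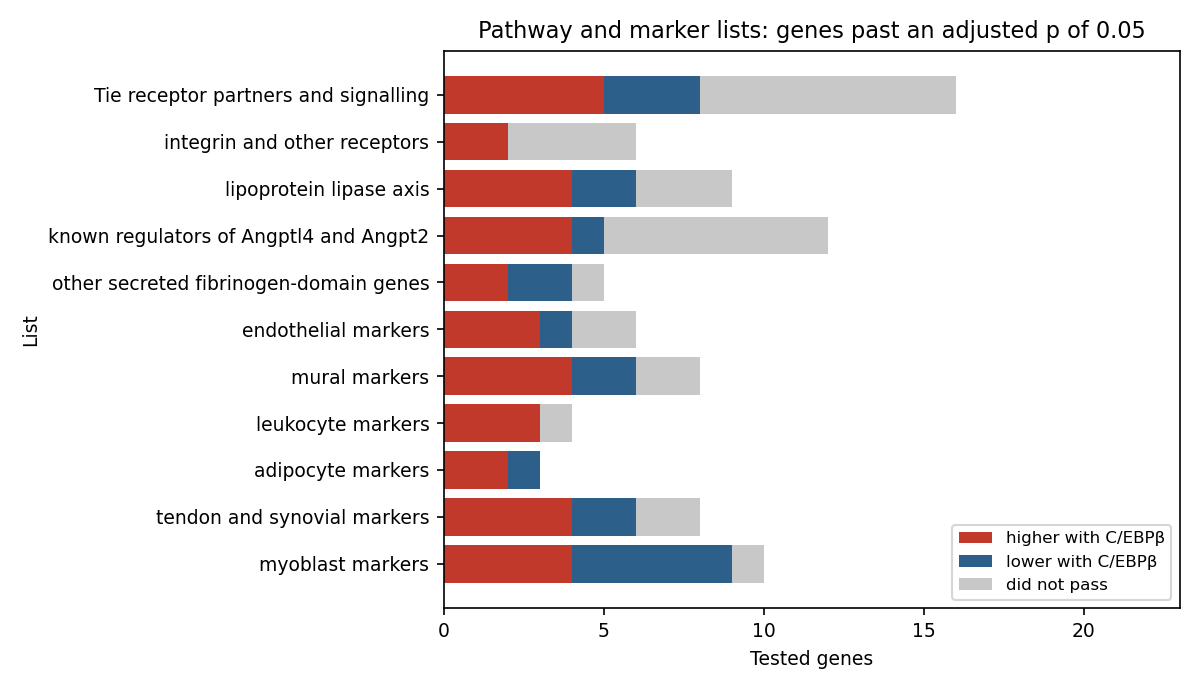
Number of tested genes in each pathway and marker list that were higher, lower or did not pass at an adjusted p of 0.05, C/EBPβ against empty vector. Tie receptor partners show 5 higher and 3 lower of 16, and lipoprotein lipase genes 4 higher and 2 lower of 9.

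In the authors' deposited table of the comparison Angpt4 had a log2 fold change of 6.18 (SE 0.22), Angptl7 6.11 (SE 0.58), Angpt1 0.46 and Angptl4 -0.55, all past an adjusted p of 0.05. For Angptl7 the authors' value lies well below the fits made here from these 4 libraries, which ran from 8.18 to 12.8. The reason for this difference was not tested. Angptl2 (0.20, adjusted p = 0.0972), Angpt2 (-0.14), Angptl6 (-8.53e-04) and Tek (0.13) did not pass in the authors' deposited table, and Angptl8 had 1.83 with no adjusted p. For Angptl7 the authors' deposited table gives a base mean of 2799, above the highest count of the gene in any of the 4 libraries, 1432. The sources used here do not say which libraries entered that mean.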

How the data were processed

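Fragments per gene were deposited by the authors as whole-number counts made with featureCounts 1.5.1, reverse-stranded and paired, on GENCODE M12, per the file headers. The submitters' processing notes name HISAT2 2.0.4, featureCounts 1.4.6, DESeq2 and GRCm38. Multi-mapping reads were not counted. The authors' deposited comparison table gives a base mean signal, log2 fold changes, a test statistic (score) and p-values, and was described only. Of 49585 identifiers, 49326 matched the reference names.

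The groups, taken from the sample titles, were compared with edgeR 4.0.16 (R 4.3.3): filterByExpr (minimum count 10, total 15), TMM scaling, quasi-likelihood test, no covariate, Benjamini-Hochberg over 15078 genes, calls at 0.05. Genes near 0 in the empty vector libraries, such as Angptl7, Lyz2, Fabp4, Kcnj8 and Vwf, met the filter only through the C/EBPβ libraries. In the other direction Cd36, Fcna and Abra met it only through the empty vector libraries. All such calls are descriptions. SE is the log2 fold change over the square root of F. CPM per gene used TMM-scaled totals of tested genes. Ratios, bounds and exact 95% Poisson or binomial intervals used library totals. The procedure was tested on simulated counts. Alternatives were DESeq2 1.42.0, limma-voom (limma 3.58.1), other scaling, other filters, a replicate block and leaving out each library.

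Members and lists were chosen with earlier results of these data known. Named genes were all members, Angptl8, overlapping genes, the 3 coding genes of mean CPM 1 or more nearest in pattern to the most abundant called member in each direction, and per list at most 2 calls a direction, ranked by adjusted p. Some genes beyond that rule were named after their values were seen. They were neighbouring genes, Ptprb, Kcnj8, Eng, Egfl7, Csf1r, Cd68 and Fcer1g, and the integrin chains that did not pass. They also included Hif1a, Ppard, the other PPAR and RXR genes named, and genes at or near 0 counts. Some items are not reported here.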

Additional observations from a re-analysis of the deposited data

How the results depend on the processing

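In the fit reported and in every alternative that kept all 4 libraries, Angpt1, Angpt4 and Angptl7 passed. With a library left out their log2 fold changes stayed positive. Where a count filter was used, Angptl7 met it only through the C/EBPβ libraries, so its passes are descriptions and not support. Under the filter of 5 CPM in 2 libraries the same holds for Angpt4. Of 15078 genes 3759 were called, and leaving out 1 library gave 2493 (without C/EBPβ replicate 1) to 3462 genes. The members called were 4, or 3 to 5 with a library left out. The titles do not say whether the replicate numbers pair libraries, and 2 possible pairs cannot settle it. Deviations of same-numbered libraries from their group means correlated at 0.15 across genes, and no conclusion on pairing is drawn. With the replicate block 4536 genes and 4 members were called, and the genes overlapping a member that passed went from 2 to 4 (2 to 3 with a library left out), by the addition of Mtor and Ralgps1. The sign turned for Angpt2 (log2 fold change 0.0198 without C/EBPβ replicate 1, range -0.25 to 0.02 over libraries left out) and for Angptl6 (-0.06 with empty vector replicate 2 left out and -0.19 with C/EBPβ replicate 2 left out, up to 0.21), neither called in any fit that tested it. The cause was not tested. With no filter the mural count went from 6 to 10 and the adipocyte count from 3 to 5. Under the stricter filter the fibrinogen-domain count went from 4 to 0, the endothelial from 4 to 2 and the leukocyte from 3 to 1, with fewer genes tested. Under the filter of 5 CPM in 2 libraries Angpt2 and Angptl6 could not be tested. With a library left out, the lone library of a group is assumed to vary like the others. Depth limits Tek, Tie1, Angptl1 and Angptl8, which had at most 10 counts in any library.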
